A study of Homo sapiens with 25 samples.

Results

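The 10 genes described here encode the kinase CHK1 (CHEK1), its relative CHK2 (CHEK2), and the proteins that switch on ATR or pass its signal to CHK1. They were taken by name as the drug target, its adaptors and the clamp that marks stalled replication forks, and their rows were found by NCBI Gene number. Earlier results of these data were known when they were chosen. All 10 were among the 28395 genes of the deposited count table and among the 14658 genes that had enough counts to be tested. The roles are mediator (CLSPN), ATR activators (TOPBP1, ETAA1), ATR partner (ATRIP), clamp loader (RAD17) and the subunits of the 9-1-1 clamp (RAD9A, HUS1, RAD1).

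RNA was sequenced from A549, an established human lung carcinoma line, with TRRAP carrying a mini auxin-inducible degron (mAID). TRRAP is a scaffold of histone acetyltransferase complexes, and the compound 5-Ph-IAA triggers the destruction of mAID-tagged proteins. All 4 groups were tagged cells synchronized by a 20 h block in 2 mM thymidine and let go for 4 h, which the series describes as S phase. One group received DMSO, one prexasertib (a CHK1 inhibitor) for 3 h, one 5-Ph-IAA at 1 µM for 6 h, and one both drugs, with 3 libraries each. The RNA labels give the genotype as WT although the growth protocol names the mAID cells, and they give the prexasertib dose in another unit than the chromatin samples do, so no dose is stated. The labels do not say how many clones the tagged line represents, or whether libraries came from separate cultures, so p-values measure the spread between these libraries.

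When a replication fork stalls, single-stranded DNA coated by the protein RPA draws in ATR with its partner ATRIP. The RAD17 clamp loader places the 9-1-1 ring (RAD9A, HUS1 and RAD1) at the junction, and the ring brings TOPBP1, which activates ATR; ETAA1 activates ATR through RPA instead. Activated ATR phosphorylates CHK1 with the help of claspin, the product of CLSPN. CHK1 then restrains the CDC25 phosphatases, and with them the cyclin-dependent kinases, which holds back origin firing and entry into mitosis. CHK2 is activated mainly by the related kinase ATM after double-strand breaks.

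Total counts ran from 10830048 to 17789482 per library, and the 10 genes had between 104 and 1627 counts per library. TRRAP mRNA averaged 83.2 ± 9.90 CPM under DMSO, 74.8 ± 10.4 under prexasertib, 133 ± 15.3 under 5-Ph-IAA and 119 ± 20.8 under both (SD, n = 3). Since 5-Ph-IAA acts on the protein, the mRNA does not check the labels. The epithelial keratins KRT8, KRT18 and KRT7 averaged 3251, 2114 and 3015 CPM, whereas KRT19 averaged 4.24 and EPCAM 0.807. Of 14 markers of blood, fibroblast, endothelium and neuron, 10 averaged below 1 CPM, and DCN was at 0. The other 4 were the neuronal genes SNAP25 (48.4 CPM), SYT1 (8.96) and RBFOX3 (6.23) and the fibroblast collagen gene COL1A1 (31.7). The libraries numbered 3 stood apart in every group. Their counts differed from those of the same group's other libraries with a chi-square per degree of freedom of 12.7 to 19.4, against 2.24 to 3.83 between numbers 1 and 2.

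The members' promoters are shown first, with the letters at the start of CLSPN and TOPBP1, the members called lower with prexasertib in both arms. RefSeq windows (GRCh38.p14, 250 bases before to 50 after the start) were found for 9 of the 10 genes (not HUS1), 14 windows in all. E2F motifs (TTTGGCGC, TTTCCCGC, TTTGCCGC or TTTCGCGC), CHR motifs (TTTGAA or TTCGAA) and CCAAT were searched on both strands. E2F factors drive S phase genes, and CHR and CCAAT boxes are typical of genes expressed in G2 and mitosis. The E2F letters were found in CLSPN and TOPBP1 and in none of the other windows, while 3.31% of 35116 promoters held them. That share counts single windows, whereas some members had several, so it is not in the unit of genes. RAD9A, which was called lower in both arms only with the replicate number as a block, had a CCAAT match and no E2F match. The stretches from 150 bases before to 9 after the start of these genes, and of CHEK1 for comparison, follow with the motifs in capitals. CLSPN lies at chr1:35769969-35770128 on the minus strand, TOPBP1 at chr3:133661932-133662091 on the minus strand and the first of 3 CHEK1 windows at chr11:125626079-125626238 on the plus strand.
CLSPN: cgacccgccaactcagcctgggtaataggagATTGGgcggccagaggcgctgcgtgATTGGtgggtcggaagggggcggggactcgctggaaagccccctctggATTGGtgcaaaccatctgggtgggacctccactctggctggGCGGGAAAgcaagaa
TOPBP1: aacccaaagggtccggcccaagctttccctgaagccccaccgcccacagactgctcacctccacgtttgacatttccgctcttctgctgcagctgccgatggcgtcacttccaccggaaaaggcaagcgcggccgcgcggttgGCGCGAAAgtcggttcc
CHEK1: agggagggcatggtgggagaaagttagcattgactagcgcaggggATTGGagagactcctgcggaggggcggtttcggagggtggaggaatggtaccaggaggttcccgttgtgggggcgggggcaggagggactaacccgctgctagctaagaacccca

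In CLSPN the E2F letters (GCGGGAAA on the gene's strand) ran from -5 to 2, with the start base counted as 0, and in TOPBP1 (GCGCGAAA) from -7 to 0. The CCAAT box, seen on the gene's strand as ATTGG, occurred 3 times in CLSPN and 3 times in CHEK2, and 1 to 3 times in CHEK1 depending on the start. It was found in at least 1 window of 7 of the 9 genes. Of all promoters, counted as single windows, 34.6% held it, so the 2 figures are not in the same unit. CHR letters, held by 16.4% of all promoters, occurred in 1 window of RAD17. These are exact letter matches within a fixed window, so a stretch that differs by a single letter is not counted. Binding of a factor was not measured in the RNA data, and a link between the motifs and the calls was not tested.

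**Figure D1:**
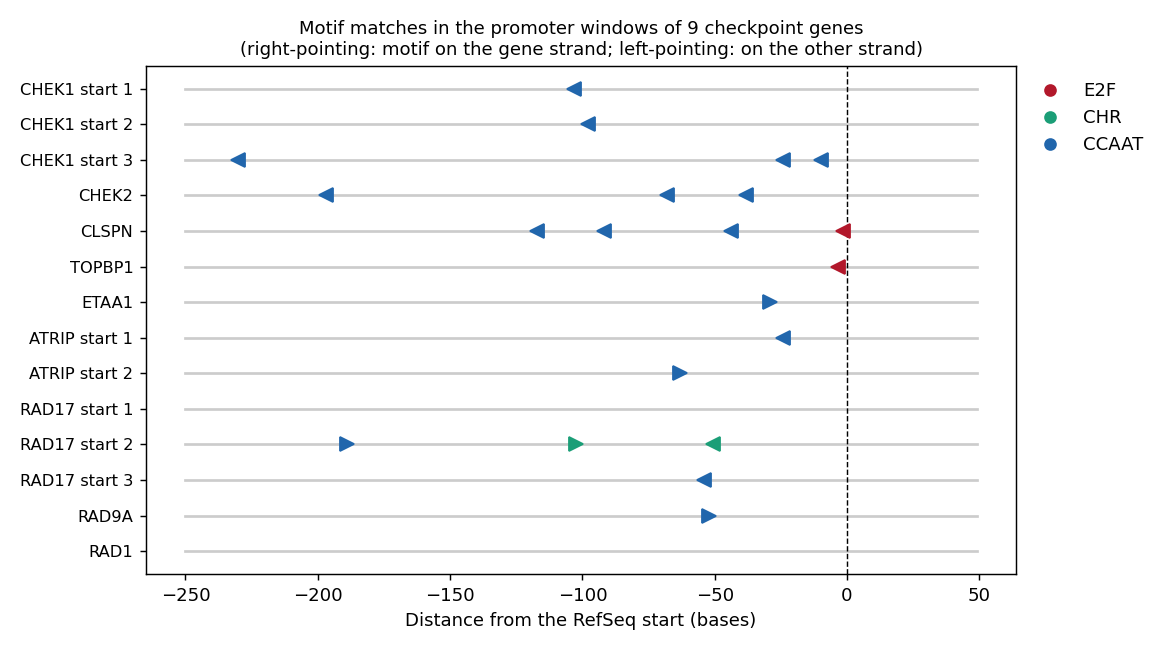
Motif matches in the 14 promoter windows of 9 checkpoint genes, by distance in bases from the RefSeq start (dashed line); the arrowheads point along the strand that carries the motif. The E2F matches of CLSPN and TOPBP1 sit at the start, and no other window has one.

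CHEK1 (chr11:125625136-125681124), the kinase that prexasertib inhibits, was lower with 5-Ph-IAA and did not change detectably with the inhibitor alone. Levels here are CPM, counts scaled to library sizes that edgeR's TMM method has adjusted. CHEK1 stood at 38.8, 36.2 and 41.6 CPM with DMSO and at 37.4, 36.3 and 35.5 with prexasertib, so these groups overlapped. With 5-Ph-IAA the libraries stood at 33.6, 30.6 and 29.3 CPM, and with both drugs at 24.4, 23.5 and 26.0. All 3 libraries with both drugs were thus below every other library of the study. Against DMSO, prexasertib alone gave a log2 fold change of -0.09 ± 0.088 (SE; 95% interval -0.28 to 0.10; edgeR quasi-likelihood adjusted p = 0.677). The change with 5-Ph-IAA was -0.32 ± 0.088 (adjusted p = 0.0189), and that of both drugs against prexasertib was -0.56 ± 0.090 (adjusted p = 0.000818).

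Adding prexasertib to 5-Ph-IAA gave a CHEK1 change of -0.34 ± 0.090 with groups that did not overlap, but an edgeR adjusted p of 0.0696. With the replicate number as a block the adjusted p was 0.00619, with DESeq2 it was 0.0394, and without the libraries numbered 3 the change was -0.43 (0.00335). Both drugs against DMSO left 0.635 times the CHEK1 level, a log2 change of -0.66 ± 0.090 (edgeR adjusted p = 0.000192). The interaction, which asks whether prexasertib acts differently with and without 5-Ph-IAA, was -0.24 ± 0.13 (95% interval -0.51 to 0.03; edgeR adjusted p = 0.99959). The fall of CHEK1 with 5-Ph-IAA alone was the less firm of its calls. It was -0.21 (edgeR adjusted p = 0.0913) without the libraries numbered 3, and leaving out DMSO library 3 or 5-Ph-IAA library 2 or 3 ended the call (adjusted p up to 0.0733).

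**Figure D2:**
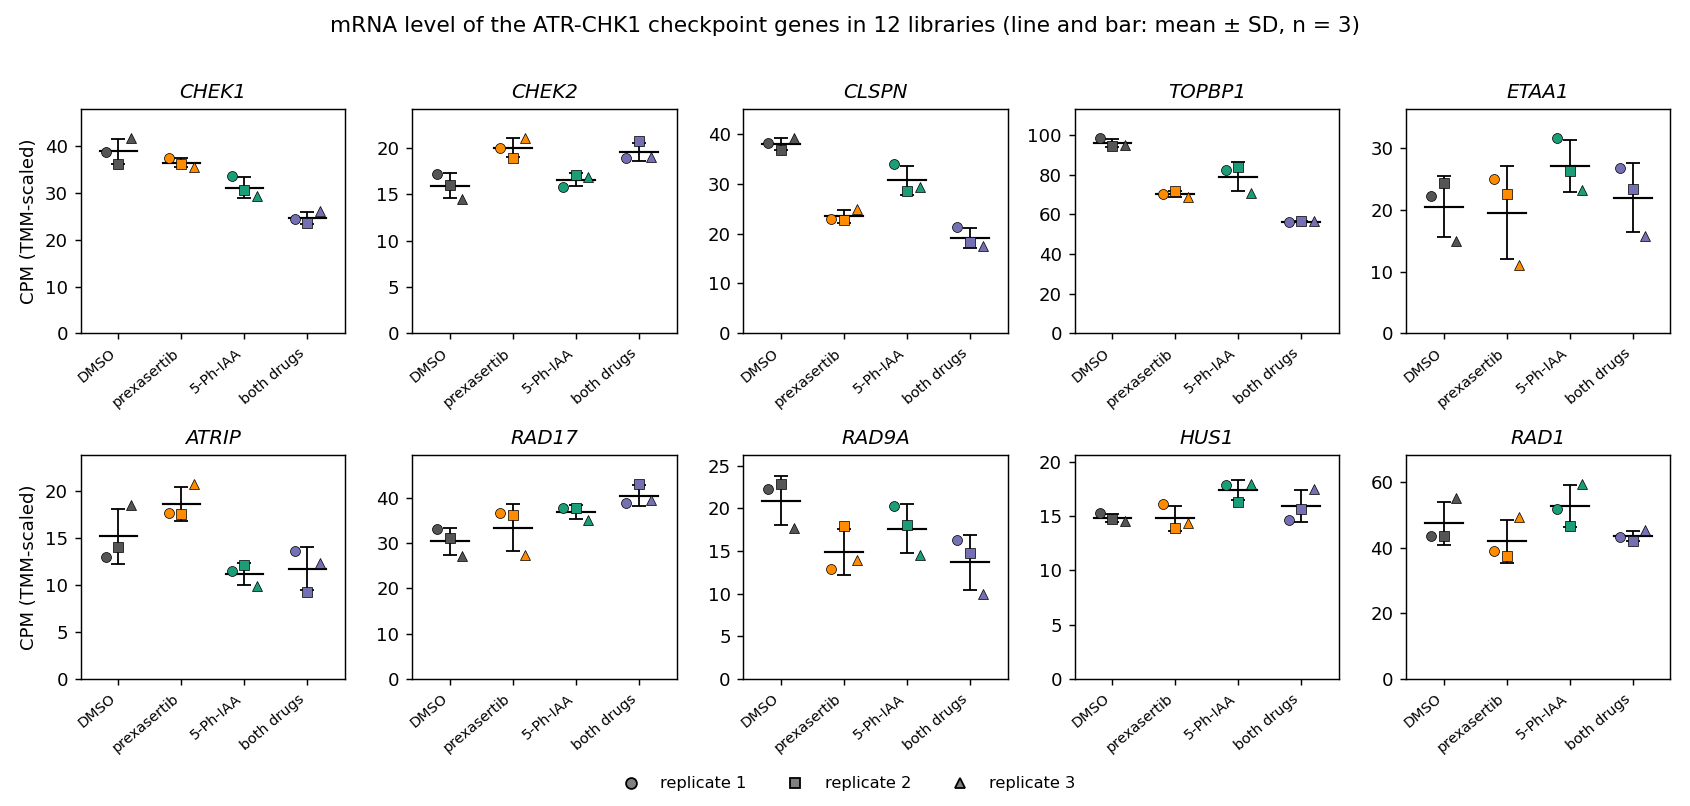
TMM-scaled CPM of the 10 checkpoint genes in 12 libraries, by treatment; symbols mark the replicate number, lines the mean and bars the SD (n = 3), and every axis starts at 0. CHEK1 with both drugs (23.5 to 26.0 CPM) lies below all other groups, CLSPN and TOPBP1 are lower wherever prexasertib was given, and ETAA1 is lowest in library 3 of every group.

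CHEK2 (chr22:28687742-28741834) was the one member whose prexasertib libraries all lay above those without the drug, in both arms. Its level was 17.3, 16.0 and 14.6 CPM with DMSO and 20.0, 19.0 and 21.1 with prexasertib. It was 15.8, 17.1 and 16.8 CPM with 5-Ph-IAA and 18.9, 20.8 and 19.1 with both drugs. The log2 changes were 0.33 ± 0.10 without 5-Ph-IAA (edgeR adjusted p = 0.0962) and 0.24 ± 0.10 with it (adjusted p = 0.311), neither past the threshold of 0.05. With the replicate block the former had an adjusted p of 0.0331. Both drugs against DMSO gave 0.30 ± 0.10 with an edgeR adjusted p of 0.0499. That last call was lost when any library other than DMSO library 1 was left out (adjusted p up to 0.174), with DESeq2 (0.0574) and without the libraries numbered 3 (0.139). 5-Ph-IAA alone gave CHEK2 a change of 0.06 ± 0.10 (95% interval -0.17 to 0.28). CHEK2 has pseudogene copies, of which CHEK2P2 had 1 count in all 12 libraries; how reads shared with the other copies were assigned is not given in the sources used here.

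CLSPN (chr1:35720213-35769978), the mediator that ATR needs to reach CHK1, fell with prexasertib in both arms. It had 38.1, 36.7 and 39.1 CPM with DMSO and 22.8, 22.6 and 25.0 with prexasertib. With 5-Ph-IAA it had 33.9, 28.6 and 29.4 CPM, and with both drugs 21.3, 18.4 and 17.5. Every prexasertib library therefore lay below every library without the inhibitor. Prexasertib left 0.618 times the DMSO level (log2 change -0.69 ± 0.10, edgeR adjusted p = 0.00174) and, with 5-Ph-IAA present, 0.623 times (-0.68 ± 0.10, adjusted p = 0.00263). The interaction was 0.01 ± 0.15 (95% interval -0.30 to 0.32). With both drugs CLSPN stood at 0.502 times its DMSO level, a change of -0.99 ± 0.10 (edgeR adjusted p = 2.4e-05), which was the farthest from 0 of any member in the 5 pairwise comparisons.

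The effect of 5-Ph-IAA on CLSPN was smaller. Without prexasertib the change was -0.31 ± 0.10 (edgeR adjusted p = 0.0407), and with it -0.30 ± 0.11 (adjusted p = 0.0639, or 0.0160 with the replicate block and 0.0386 without both-drug library 1). The first of these passed the threshold in 4 of 12 leave-one-out fits, where its adjusted p reached 0.154. The libraries whose omission ended the call were all 3 with DMSO, prexasertib 1 and 2, 5-Ph-IAA 2 and 3, and both-drug library 2. Without the libraries numbered 3 it was -0.25 (adjusted p = 0.0631).

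TOPBP1 (chr3:133600238-133661941), which activates ATR at the 9-1-1 clamp, was called lower in each of the 5 pairwise comparisons. Its level was 98.2, 94.3 and 95.0 CPM with DMSO and 70.4, 71.6 and 68.9 with prexasertib. It was 82.5, 83.6 and 70.6 CPM with 5-Ph-IAA and 55.9, 56.4 and 56.8 with both drugs, a group whose SD was only 0.437 CPM. DMSO libraries were above and both-drug libraries below all others, whereas 5-Ph-IAA library 3 fell within the prexasertib range. Prexasertib gave a change of -0.45 ± 0.074 (edgeR adjusted p = 0.00365) and, in 5-Ph-IAA-treated cells, -0.49 ± 0.074 (adjusted p = 0.00278). For 5-Ph-IAA the changes were -0.28 ± 0.073 (adjusted p = 0.0147) and, in prexasertib-treated cells, -0.32 ± 0.075 (adjusted p = 0.00923). Both drugs left 0.588 times the DMSO level (-0.77 ± 0.074, edgeR adjusted p = 1.5e-05). Leaving out DMSO library 1 took the adjusted p for 5-Ph-IAA alone to 0.0507. Over the 12 libraries the log2 CPM of TOPBP1 and CLSPN had a Pearson r of 0.944, a description over 4 groups that both drugs set apart.

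ETAA1 (chr2:67397333-67412089), the other ATR activator, had estimates of both signs, unlike TOPBP1. It had 22.2, 24.4 and 14.9 CPM with DMSO, 25.1, 22.5 and 11.0 with prexasertib, 31.6, 26.4 and 23.2 with 5-Ph-IAA, and 26.7, 23.4 and 15.8 with both drugs. The library numbered 3 was the lowest in all 4 groups, and the coefficient of variation within a group reached 38.4%. No pairwise comparison was called; the estimate farthest from 0 was 0.40 ± 0.29 with 5-Ph-IAA (edgeR adjusted p = 0.355). With the replicate block this became 0.41 ± 0.11 (adjusted p = 0.00302), and without the libraries numbered 3 it was 0.33 (adjusted p = 0.0253). In prexasertib-treated cells the 5-Ph-IAA change was 0.17. The prexasertib changes had the sign of TOPBP1's, at -0.06 without 5-Ph-IAA and -0.30 with it (edgeR adjusted p = 0.957 and 0.728). With the block the latter was -0.31 ± 0.11 (adjusted p = 0.0517).

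ATRIP (chr3:48446737-48467645), the partner that carries ATR to RPA, was lower with both drugs than with prexasertib alone. It had 13.0, 14.1 and 18.5 CPM with DMSO, 17.6, 17.5 and 20.8 with prexasertib, 11.5, 12.1 and 9.94 with 5-Ph-IAA, and 13.7, 9.23 and 12.4 with both drugs. All prexasertib libraries lay above all libraries with both drugs, and the change was -0.66 ± 0.17 (edgeR adjusted p = 0.0157). It missed the threshold when prexasertib library 3 or both-drug library 2 was left out (adjusted p up to 0.0684), and was -0.61 (0.00332) without the libraries numbered 3. Against DMSO, 5-Ph-IAA gave -0.44 ± 0.17 (adjusted p = 0.0812, or 0.0118 with the replicate block) with groups that did not overlap. Both drugs against DMSO gave -0.37 ± 0.17 (adjusted p = 0.133, or 0.0320 with the block). TREX1, a nuclease gene that lies wholly within the ATRIP locus and shares 1816 bases with it, averaged 6.91 to 9.52 CPM in the 4 groups. Its change with both drugs against prexasertib, -0.45 ± 0.22 (edgeR adjusted p = 0.172), had the sign of ATRIP's. So did those with 5-Ph-IAA (-0.32), prexasertib (0.10) and both drugs (-0.35) against DMSO, none of them called. With both drugs against 5-Ph-IAA the signs differed (-0.03 for TREX1, 0.07 for ATRIP). Since the rule for reads over shared bases is not given, the ATRIP and TREX1 values are uncertain.

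The clamp loader gene RAD17 (chr5:69369293-69414801) was the member that rose most with both drugs against DMSO. Its level was 33.0, 31.1 and 27.2 CPM with DMSO and 36.6, 36.1 and 27.4 with prexasertib. It was 37.7, 37.6 and 35.0 CPM with 5-Ph-IAA and 38.7, 43.0 and 39.5 with both drugs, which lay above every other library. Both drugs against DMSO gave 0.41 ± 0.11 (edgeR adjusted p = 0.0182), lost without DMSO library 3 or both-drug library 2 (adjusted p up to 0.0743) and at 0.34 (0.00566) without the libraries numbered 3. The effect of 5-Ph-IAA was 0.27 ± 0.11 in each arm, with edgeR adjusted p of 0.107 without and 0.118 with prexasertib, and of 0.0102 in each with the replicate block. RAD17 shares 532 bases at its start with TAF9 and AK6, so its value is uncertain to that extent. TAF9 averaged 103 to 126 CPM, and its 5-Ph-IAA changes of -0.07 and -0.24 had the other sign. AK6 averaged 18.6 ± 1.26 CPM under DMSO and 22.5 ± 1.35 under both (SD, n = 3). Its change with both drugs against DMSO, 0.27 ± 0.10 (edgeR adjusted p = 0.0599), had the sign of RAD17's, whereas its 5-Ph-IAA changes of -0.03 and -0.12 did not. With prexasertib AK6 was called higher (0.40 ± 0.10, edgeR adjusted p = 0.0383), and with 5-Ph-IAA present the change was 0.30 ± 0.10 (0.153).

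Within the 9-1-1 clamp the 3 subunits differed in their estimates. RAD9A (chr11:67391986-67398412) had 22.2, 22.9 and 17.7 CPM with DMSO, 12.9, 17.9 and 13.9 with prexasertib, 20.3, 18.0 and 14.6 with 5-Ph-IAA, and 16.3, 14.7 and 10.0 with both drugs. Every library with both drugs lay below every DMSO library, and this change of -0.61 ± 0.19 was called (edgeR adjusted p = 0.0308). It was lost when DMSO library 1 or 2 or both-drug library 2 or 3 was left out (adjusted p up to 0.115), and was -0.54 (0.00234) without the libraries numbered 3. Prexasertib alone gave -0.49 ± 0.19 (edgeR adjusted p = 0.187, or 0.00292 with the replicate block and 0.00563 without the libraries numbered 3), and -0.37 ± 0.19 with 5-Ph-IAA present (0.440, or 0.0345 with the block). The last 230 bases of RAD9A are shared with PPP1CA, a phosphatase subunit gene at 250 to 279 CPM, so RAD9A is uncertain as well.

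HUS1 (chr7:47963288-47979615) had the estimate nearest to 0 of the 10 with prexasertib against DMSO. It had 15.3, 14.7 and 14.6 CPM with DMSO, 16.1, 13.9 and 14.4 with prexasertib, 17.9, 16.3 and 18.0 with 5-Ph-IAA, and 14.6, 15.7 and 17.5 with both drugs. Its prexasertib change was -0.00 ± 0.11 (95% interval -0.25 to 0.24). The 5-Ph-IAA libraries did not overlap with DMSO, but the change of 0.23 ± 0.11 had an edgeR adjusted p of 0.164. RAD1 (chr5:34905260-34915504) had 43.7, 43.7 and 55.1 CPM with DMSO, 39.0, 37.4 and 49.5 with prexasertib, 51.9, 46.7 and 59.5 with 5-Ph-IAA, and 43.3, 42.2 and 45.4 with both drugs. Library 3 was the highest in all 4 groups, opposite to its place for ETAA1. No RAD1 comparison was called; prexasertib added to 5-Ph-IAA gave -0.27 ± 0.13 (edgeR adjusted p = 0.371, or 0.0127 with the replicate block). RAD1 lies wholly within TTC23L (10245 bases shared), and CHEK1 shares 9326 bases with ACRV1. These neighbours had at most 7 and 2 counts in a library. TOPBP1, CLSPN and CHEK1 also share 716, 4132 and 758 bases with genes that are not in the count table. How shared reads were assigned is not given, so these members are uncertain to that extent.

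Counted over the 10 genes, prexasertib against DMSO called 2 lower (CLSPN and TOPBP1) and 0 higher, where 4.73% of all genes tested were called, 2.36% higher and 2.37% lower. In the other arm, both drugs against 5-Ph-IAA called the same 2 genes lower and 0 higher, beside 2.42% of all genes, 1.17% higher and 1.26% lower. These comparisons share no libraries, but their spread was estimated in a common fit of all 12 libraries. Because the members were chosen with earlier results of these data known, their shares beside those of all genes are a description. Groups that did not overlap were seen for 3 members in the first comparison (21.1% of all genes) and for 6 in the second (19.6%): CHEK1, CLSPN, TOPBP1 and RAD1 lower, CHEK2 and RAD17 higher. With the replicate block, 4 and 5 members were called, beside 18.1% and 15.5% of all genes.

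5-Ph-IAA against DMSO called 3 members lower (CHEK1, CLSPN and TOPBP1) and 0 higher, which is 30% of the members beside 21.8% of all genes (9.65% higher, 12.2% lower). Both drugs against prexasertib called 3 lower (CHEK1, TOPBP1 and ATRIP) and 0 higher, again 30% of the members, beside 18.2% of all genes (7.85% higher, 10.4% lower). Groups did not overlap for 6 members (37.3% of all genes) and 5 members (35.2%). With the replicate block 6 and 5 members were called, beside 42.6% and 37.1% of all genes. Both drugs against DMSO called 4 lower and 2 higher, beside 25.9% of all genes (14.2% lower, 11.8% higher), and 6 members did not overlap (40.5%). That comparison shares libraries with each of the others. The interaction was called for 0 members and 0% of genes by edgeR, with 0 members and 519 of 14658 genes at an unadjusted p under 0.05, and DESeq2 called 5 genes and 0 members.

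**Figure D3:**
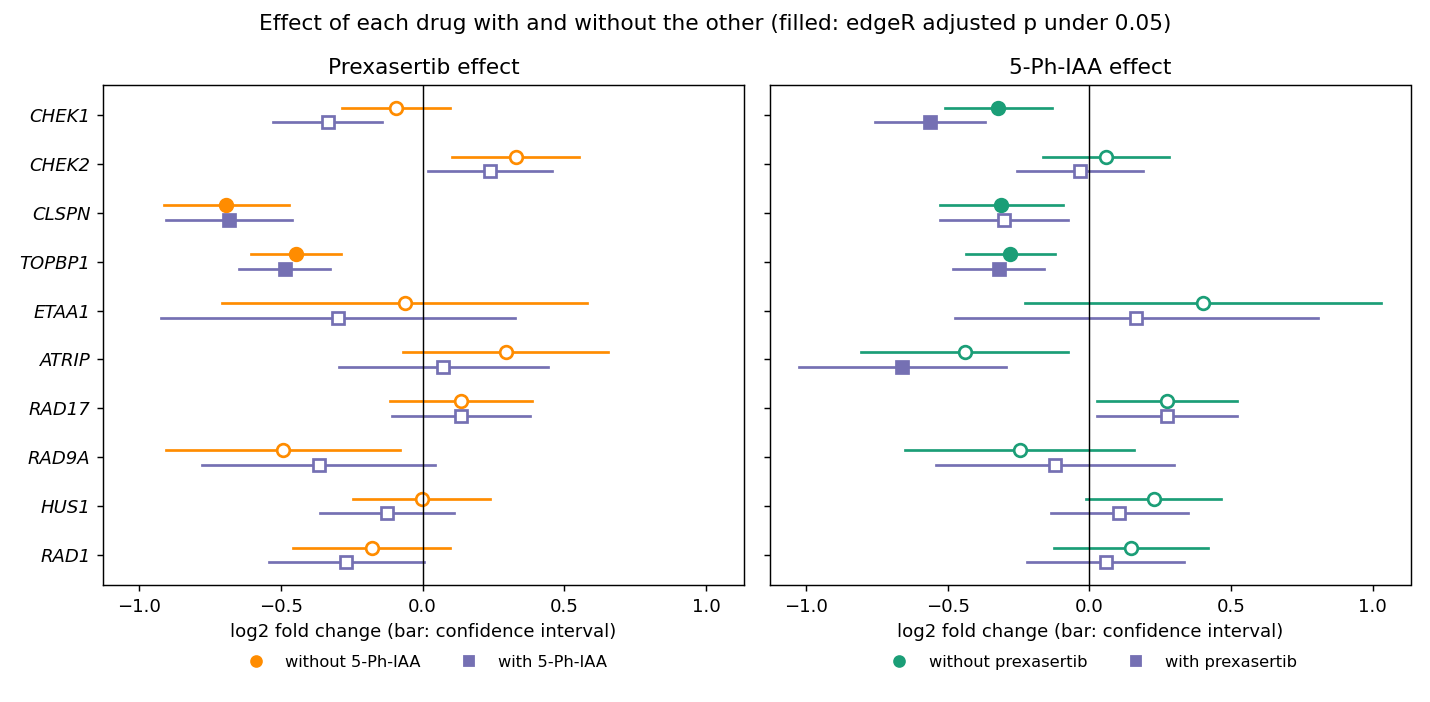
Log2 fold change with its 95% interval for each gene: prexasertib without and with 5-Ph-IAA (left), and 5-Ph-IAA without and with prexasertib (right); filled symbols have an edgeR adjusted p under 0.05. CLSPN is at -0.69 and -0.68 and TOPBP1 at -0.45 and -0.49 on the left, whereas CHEK1 is filled only on the right.

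The scaling of the libraries bears on every 5-Ph-IAA result. TMM factors lay between 1.02 and 1.10 in the libraries that received 5-Ph-IAA, and between 0.925 and 0.978 in the others. On library size alone the median log2 change of all genes was 0.16 for 5-Ph-IAA against DMSO, 0.15 for both drugs against prexasertib and 0.11 for both drugs against DMSO. The share of called genes that were higher was then 75.4%, 74.3% and 65.2%. On that scale the 5-Ph-IAA changes of CHEK1 (-0.16, edgeR adjusted p = 0.199), CLSPN (-0.15, 0.299) and TOPBP1 (-0.12, 0.304) were not called, nor was TOPBP1 in prexasertib-treated cells (-0.18, 0.136) or RAD9A with both drugs against DMSO (-0.51, 0.0840). RAD17 (0.43, 0.0203) and HUS1 (0.38, 0.0175) were called higher with 5-Ph-IAA. The prexasertib changes of CLSPN and TOPBP1 kept their calls in both arms, at -0.73 and -0.74 and at -0.48 and -0.54.

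The other genes around ATR, 22 tested of a list of 23 (RPA, the RFC subunits, fork proteins and ATM-side partners; HUS1B was too low), had a median log2 change of -0.08 with prexasertib, with 1 higher and 1 lower. With 5-Ph-IAA 2 were higher and 7 lower (median -0.19; 1 lower on library size alone, and 3 to 7 when a library was left out, the call count falling most without DMSO library 1 or 3 or 5-Ph-IAA library 1 or 2). Both drugs against prexasertib gave 0 higher and 6 lower (median -0.15), and both drugs against 5-Ph-IAA 0 and 1 (median -0.08). The median over all genes tested was between -0.00 and 0.01 in these comparisons.

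WDHD1, a replisome protein that couples helicase and polymerase, was called lower in all 4. It averaged 55.5 ± 2.01 CPM under DMSO, 43.2 ± 1.70 under prexasertib, 44.1 ± 1.49 under 5-Ph-IAA and 33.9 ± 0.746 under both (SD, n = 3). Its changes were -0.36 ± 0.073 and -0.38 ± 0.074 for prexasertib without and with 5-Ph-IAA (edgeR adjusted p = 0.0120 and 0.0133), at up to 0.0663 without DMSO 1 or prexasertib 2 and up to 0.0707 without 5-Ph-IAA 2 or both-drug library 1 or 2. ATR itself, the apical kinase, changed by -0.40 ± 0.11 with 5-Ph-IAA (edgeR adjusted p = 0.0164; up to 0.0724 without DMSO library 1). It averaged 44.6 and 45.0 CPM with DMSO and prexasertib, and 33.7 and 33.0 with 5-Ph-IAA and both drugs. DONSON, a fork protection protein, fell by 0.66 on the log2 scale with 5-Ph-IAA and by 0.53 with both drugs against prexasertib (edgeR adjusted p = 0.00115 and 0.00616). MDC1, an adaptor at damaged chromatin, rose with prexasertib (0.42 ± 0.099, edgeR adjusted p = 0.0262; up to 0.117 and lost without DMSO library 1 or 3 or any prexasertib library) and fell when 5-Ph-IAA was added to it (-0.51 ± 0.099, adjusted p = 0.00296). SMARCAL1, a fork-remodelling enzyme, and NBN, a subunit of the MRN complex, were higher with 5-Ph-IAA (0.32 and 0.21, edgeR adjusted p = 0.0196 and 0.0465), calls lost in 4 of 12 leave-one-out fits for SMARCAL1 (DMSO 1 or 2, 5-Ph-IAA 1 or 2; up to 0.0842) and in 8 for NBN (all 3 with DMSO, prexasertib 2, numbers 1 and 2 of the others; up to 0.151). On library size alone WDHD1 (-0.18, edgeR adjusted p = 0.0693) and ATR (-0.24, 0.141) were not called with 5-Ph-IAA, nor MDC1 with prexasertib (0.38, 0.0570).

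A few genes that act below CHK1, among them the cyclin genes CCNB1 and CCNA2, rose with prexasertib and fell with 5-Ph-IAA. Of 18 effectors, prexasertib called 4 higher and 1 lower (median -0.21), and 5-Ph-IAA 0 higher and 11 lower (median -0.79). In prexasertib-treated cells 5-Ph-IAA gave 0 higher and 11 lower (median -0.73), and in 5-Ph-IAA-treated cells prexasertib gave 2 higher and 1 lower (median -0.15). Leaving out 1 library gave 1 to 4 higher with prexasertib (fewer without DMSO 1 or 2 or prexasertib 1 or 3) and 0 to 1 lower (0 without any DMSO library or prexasertib 1 or 2). In 5-Ph-IAA-treated cells it gave 1 to 3 higher (1 without 5-Ph-IAA 1) and 0 to 3 lower (0 without 5-Ph-IAA 2 or both-drug library 2, more without DMSO 3, prexasertib 3 or 5-Ph-IAA 3). With the replicate block, 6 effectors were higher and 8 lower with prexasertib, beside 8.37% and 9.77% of all genes, and 6 and 6 in the other arm, beside 7.80% and 7.70%. CCNB1, the mitotic cyclin, averaged 526 ± 33.3 CPM under DMSO, 856 ± 18.0 under prexasertib, 241 ± 27.7 under 5-Ph-IAA and 524 ± 36.4 under both. Both-drug libraries (491 to 563 CPM) overlapped with DMSO (503 to 564). Its changes were 0.70 ± 0.087 and 1.12 ± 0.088 for prexasertib without and with 5-Ph-IAA (edgeR adjusted p = 0.000512 and 2.9e-05) and -1.12 ± 0.088 for 5-Ph-IAA (2.4e-06).

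CDC25B and CDC25C, phosphatases that activate the mitotic kinase, and CCNA2, the S and G2 cyclin, were also among the effectors called. CDC25B fell by 0.89 with 5-Ph-IAA and by 0.84 in prexasertib-treated cells on the log2 scale (edgeR adjusted p = 2.8e-06 and 5.2e-06). CCNA2 rose with prexasertib by 0.42 ± 0.098 (adjusted p = 0.0266) and fell by 1.02 with 5-Ph-IAA (1.4e-05). CDC25C rose by 0.58 ± 0.12 with prexasertib (edgeR adjusted p = 0.0121), and WEE1, the kinase that opposes CDC25, by 0.60 ± 0.11 when prexasertib was added to 5-Ph-IAA (0.0110). The call of CCNA2 with prexasertib was lost without DMSO 1 or 2 or prexasertib 1 or 3 (up to 0.111), that of CDC25C without DMSO 1 or 2 (up to 0.0602), and that of WEE1 without 5-Ph-IAA 1 (0.0504). E2F8, a repressor of E2F targets, was the effector that fell with each drug: it averaged 12.7 ± 0.776 CPM under DMSO, 7.86 ± 0.216 under prexasertib, 4.61 ± 0.801 under 5-Ph-IAA and 2.43 ± 0.112 under both. Its prexasertib changes were -0.69 ± 0.15 and -0.93 ± 0.17 (edgeR adjusted p = 0.0202 and 0.0103), the first lost without any of the 6 libraries compared (up to 0.0854) and the second without 5-Ph-IAA 2 or both-drug library 2 (up to 0.0710).

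A list of 18 genes that degrade, stabilise or switch off checkpoint proteins had a median near that of all genes with prexasertib (0.00; 2 higher, 2 lower) and of -0.16 with 5-Ph-IAA (1 higher, 6 lower). PLK1, the kinase that marks claspin for destruction, averaged 337 ± 23.4 CPM under DMSO, 481 ± 50.8 under prexasertib, 139 ± 9.75 under 5-Ph-IAA and 266 ± 9.46 under both. It rose with prexasertib (0.51 ± 0.085 and 0.94 ± 0.087 without and with 5-Ph-IAA, edgeR adjusted p = 0.0038 and 4.7e-05) and fell with 5-Ph-IAA (-1.28 ± 0.087, adjusted p = 9.9e-07). PPM1D, the phosphatase WIP1 that dephosphorylates CHK1, rose with prexasertib by 0.69 ± 0.12 and 0.90 ± 0.12 (edgeR adjusted p = 0.00429 and 0.000761). USP1, a deubiquitinase of the Fanconi pathway, fell with prexasertib in both arms (-0.38 ± 0.082 and -0.41 ± 0.082, edgeR adjusted p = 0.0177 and 0.0175), the first lost without DMSO or prexasertib 1 or 3 (up to 0.0702), the second without 5-Ph-IAA 1 or 2 or both-drug library 1 or 3 (up to 0.0813). USP20, a deubiquitinase of claspin, rose with 5-Ph-IAA by 0.63 ± 0.11 and 0.82 ± 0.11 (adjusted p = 0.00153 and 0.000319). FZR1, a subunit of the anaphase-promoting complex, fell by 0.77 (edgeR adjusted p = 0.000131) with 5-Ph-IAA, and CUL4A, a ubiquitin ligase scaffold for CHK1, by 0.44 (0.000293). USP7 changed by -0.48 ± 0.064 when 5-Ph-IAA was added to prexasertib (edgeR adjusted p = 0.00023). BTRC, a ligase subunit that targets claspin, fell by 0.51 with prexasertib (edgeR adjusted p = 0.0454), lost in 9 of 12 leave-one-out fits at up to 0.195; it held without prexasertib 3, 5-Ph-IAA 3 or both-drug library 3.

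**Figure D4:**
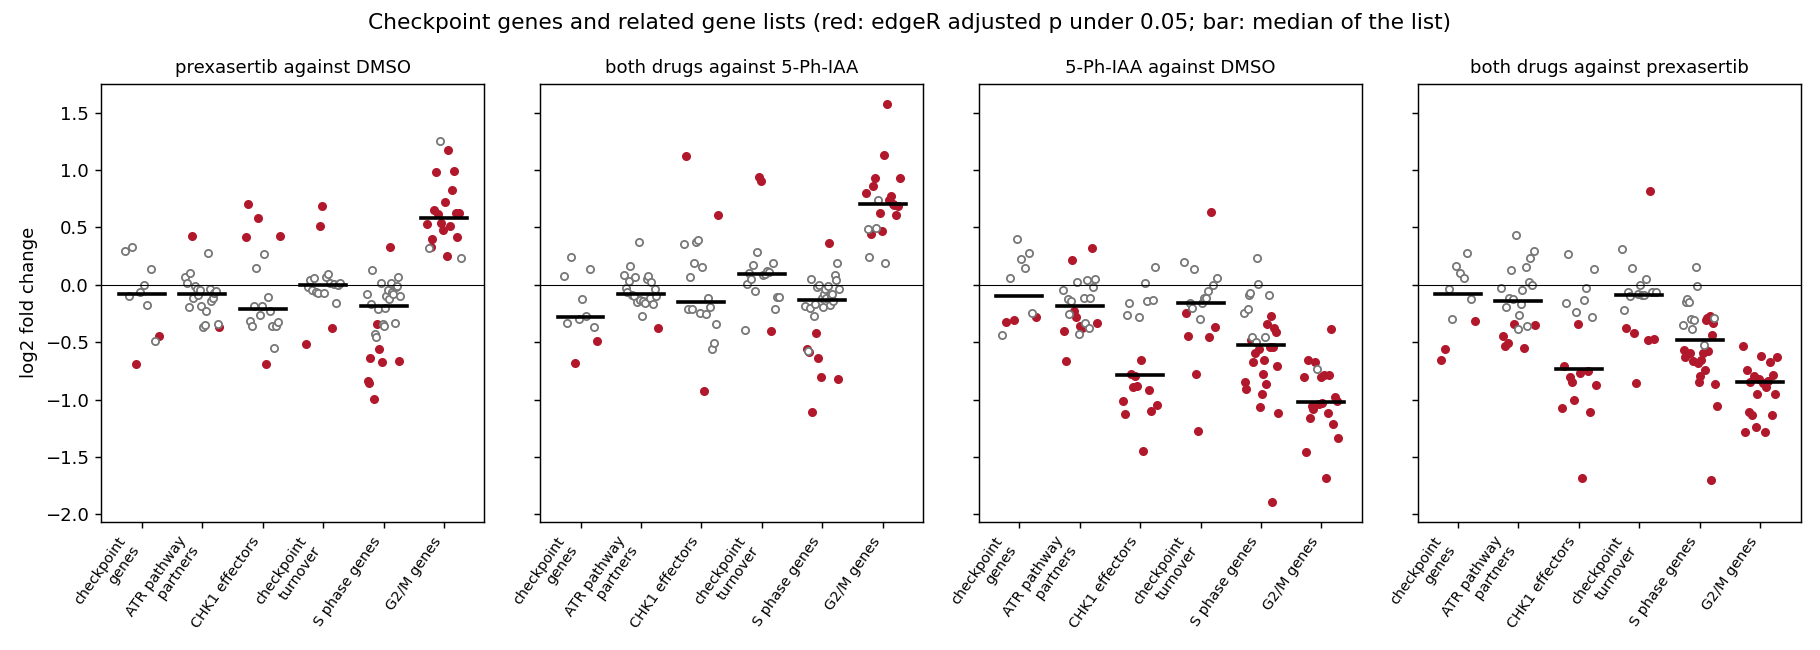
Log2 fold change of each tested gene of 6 lists in 4 comparisons; red points have an edgeR adjusted p under 0.05 and bars mark list medians. The checkpoint genes spread on both sides of 0, whereas G2/M genes lie above 0 with prexasertib (medians 0.58 and 0.70) and below it with 5-Ph-IAA (-1.02 and -0.85).

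Genes that mark cell cycle stages moved in the same comparisons. Of 30 S phase genes, prexasertib called 1 higher and 8 lower (median -0.18) and, with 5-Ph-IAA present, 1 and 7 (median -0.13). The 7 became 4 to 8 when a library was left out (4 without 5-Ph-IAA 1 or both-drug library 1 or 2). The 1 higher in each arm became 0 without DMSO 1 or 2 or any prexasertib library in the first, and without 5-Ph-IAA 1 or 2 or any both-drug library in the second. 5-Ph-IAA called 0 higher and 20 lower (median -0.52; 17 lower on library size alone), and 0 and 19 in prexasertib-treated cells (median -0.49; 13 lower on library size alone, 11 to 22 when a library was left out, fewer without both-drug library 1). UHRF1, which maintains DNA methylation at forks, fell with prexasertib in both arms (-0.67 ± 0.090 and -0.82 ± 0.093, edgeR adjusted p = 0.000908 and 0.000298), and CHAF1A, a chromatin assembly subunit, in the first (-0.64 ± 0.085, 0.00084). Of 20 G2/M genes, prexasertib called 17 higher and 0 lower, and 5-Ph-IAA 0 higher and 19 lower. The part of cell cycle position in the changes of the 10 checkpoint genes was not tested. In bulk RNA a change in the share of cells at a stage and a change in mRNA per cell cannot be told apart.

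Finally, the genes whose pattern over the 12 libraries was nearest to that of CHEK1, CLSPN or TOPBP1, the members that fell most with both drugs against DMSO, were listed by Pearson r of log2 CPM among 10330 genes with a mean of at least 3. Such an r follows from libraries that share their treatments and is given as a description. For CHEK1 they were BAZ1B (r = 0.980), ENAH (0.961), ATAD2 (0.960), CNOT1 (0.959) and MALT1 (0.958). These genes were picked for their likeness in the same libraries, so a like pattern was fixed in advance and only their changes are given. BAZ1B changed by -0.14 ± 0.072 with prexasertib and by -0.36 ± 0.072 with 5-Ph-IAA, each against DMSO. For ATAD2 these changes were -0.28 ± 0.066 and -0.52 ± 0.066. For CLSPN they were LIMK2 (0.979), LHFPL2 (0.975), NFIC (0.971), NR3C1 (0.967) and CASP2 (0.962). TOPBP1 shared NR3C1 (0.975) and LHFPL2 (0.974) with CLSPN, followed by SLC4A7 (0.971), PTPN12 (0.969) and MMS22L (0.966). LHFPL2 changed by -0.48 and -0.44 with prexasertib, without and with 5-Ph-IAA, on the log2 scale. With 5-Ph-IAA, without and with prexasertib, it changed by -0.32 and -0.28. In the same order the changes were -0.52, -0.41, -0.27 and -0.16 for LIMK2. For NR3C1 they were -0.34, -0.32, -0.17 and -0.15.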

How the data were processed

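RNA was poly(A)-selected and made into directional libraries, per the labels' protocols. The authors deposited raw counts per gene, not normalized; per the submitters' processing notes they used featureCounts 2.0.8, limma 3.58.1 and hg38. For the aligner, annotation and strand setting, no statement was found: not given in the sources used here. Of 28395 gene IDs, 27745 matched the RefSeq gene table, and the other 650 held 0.0324% of counts.

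Counts were analysed in R 4.3.3 with edgeR 4.0.16: filterByExpr (minimum count 10, total 15), TMM factors, a robust quasi-likelihood fit of 4 group terms to all 12 libraries, and Benjamini-Hochberg adjustment over 14658 genes, which held 99.9% of counts; calls are at an adjusted p under 0.05. The biological coefficient of variation was 12.8%. The fit was also run on counts simulated from its own estimates of spread, without an effect of the replicate number, which does not test the calls given here. SE is the log2 fold change divided by the square root of F. Log2 CPM used a prior count of 2; markers used library size only. Reads carry no molecular identifiers, so depth bounds counting error only.

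The members and lists were chosen with earlier results of these data known. Named genes of each pathway list were up to 3 per direction with the smallest adjusted p among those called, and for the S phase and G2/M lists at most 2 per comparison. Overlapping neighbours were added after values were seen. Libraries of the same number deviated from their group means together in 18 of 18 pairs (r of 0.220 to 0.633), so the replicate number was also fitted as a block. Of 36 pairs of different number and group, 12 also had an r above 0.1. Pairs of a number 1 with a number 2 ran from 0.196 to 0.366, which overlapped with the range for the same number. Only 8 of 12 libraries had their highest r with their own number, so the r mainly set number 3 apart. DESeq2 1.42.0, limma-voom, other scalings and filters, 2-group fits and left-out libraries were alternatives. The 13 CUT&RUN samples are not analysed here.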

Additional observations from a re-analysis of the deposited data

How the results depend on the processing

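The replicate block fits a term for the replicate number. With it, 2659 genes and 4 members were called with prexasertib against DMSO (693 and 2 otherwise). The counts were 6245 and 6 with 5-Ph-IAA against DMSO (3201 and 3), and 5441 and 5 with both drugs against prexasertib (2674 and 3). They were 2272 and 5 with both drugs against 5-Ph-IAA (355 and 2). With both drugs against DMSO 6552 genes were called (3802), and 96 for the interaction (0). The block changed no call of a member other than those given above.

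Without the libraries numbered 3 the gene counts were 2094, 5296, 4498, 2042 and, for the interaction, 187. With only the 2 groups of a comparison in the fit they were 357 for prexasertib against DMSO and 184 for both drugs against 5-Ph-IAA, and 0 members were called with 5-Ph-IAA against DMSO. DESeq2 called 657 genes with both drugs against 5-Ph-IAA and 5 for the interaction, and library size alone 1 for the interaction. Leaving out 1 library gave 306 to 786 genes with prexasertib against DMSO (fewer without DMSO or prexasertib 1 or 2), 2092 to 3415 with 5-Ph-IAA against DMSO (fewer without 5-Ph-IAA 1 or 2) and 156 to 447 with both drugs against 5-Ph-IAA (fewer without number 1 or 2 of either group). Members called were then 1 to 4 with 5-Ph-IAA against DMSO (1 without DMSO 1 or 3 or 5-Ph-IAA 2 or 3, and 4 without prexasertib 3) and 3 to 5 with both drugs against DMSO (3 without both-drug library 2). CLSPN and TOPBP1 remained called in all of these fits for prexasertib in both arms. The calls of CHEK1, CLSPN and TOPBP1 with 5-Ph-IAA against DMSO were also lost with only these 2 groups in the fit (adjusted p = 0.0618, 0.0689 and 0.0664), and CLSPN also without a filter (0.0597) and with a strict one (0.0514). CHEK2 with both drugs against DMSO was lost without a filter (0.132) and with 2 groups only (0.101), and CHEK1 with both drugs against 5-Ph-IAA gained a call on library size alone (0.0293). RAD17 gained one with 5-Ph-IAA without the libraries numbered 3 (0.0437) or prexasertib 3 (0.0442), and on library size alone in prexasertib-treated cells (0.0294).

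Some estimates near 0, none of them called, changed sign, and the cause was not tested. Without the libraries numbered 3 these were ETAA1 (0.041) and HUS1 (0.0075) with prexasertib against DMSO, CHEK2 (0.015) and RAD9A (0.019) with both drugs against prexasertib, ATRIP (-0.051) with both drugs against 5-Ph-IAA, and the interactions of CHEK2 (0.0087) and RAD17 (-0.089). On library size alone they were CHEK2 (0.11) and RAD9A (0.019) with both drugs against prexasertib and the interactions of CLSPN (-0.0081) and RAD17 (-0.019). HUS1 with prexasertib was 0.011 with DESeq2, 0.0097 with RLE factors and 0.0056 with 2 groups only; the RAD17 interaction was -0.0049, -0.0040 and, with the strict filter, -0.0038. Leaving out 1 library gave, with prexasertib against DMSO, -0.28 to 0.22 for ETAA1 and -0.065 to 0.039 for HUS1; with 5-Ph-IAA against DMSO, -0.0061 to 0.12 for CHEK2; with both drugs against prexasertib, -0.12 to 0.38 for ETAA1, -0.27 to 0.058 for RAD9A and -0.020 to 0.19 for RAD1; with both drugs against 5-Ph-IAA, -0.049 to 0.22 for ATRIP; and with both drugs against DMSO, -0.083 to 0.30 for ETAA1. Interactions ran from -0.079 to 0.088 for CLSPN, -0.11 to 0.0043 for TOPBP1, -0.14 to 0.076 for RAD17, -0.025 to 0.29 for RAD9A and -0.21 to 0.032 for RAD1.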
